A study of Mus musculus with 7 samples.

Results

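Ionotropic glutamate receptors are ligand-gated cation channels, and 10 genes that encode their subunits were examined in MIN6 cells, a mouse insulinoma line used as a model of the insulin-secreting beta cell. The genes were Gria1, Gria2, Gria3 and Gria4 of the AMPA class, Grik2 and Grik5 of the kainate class, and Grin1, Grin2a, Grin2c and Grin2d of the NMDA class. All array probes whose transcript accession belongs to one of these genes were taken, which gave 20 of the 56605 probes and 10 of the 45616 genes or unnamed transcripts on the array. Gria1 was selected on its detection flags in these arrays, because its probe lost the well-above-background flag with treatment, so its difference between the groups is a description here, without a test. The other 9 genes joined it by family. Each group consisted of MIN6 cells at passage 20 to 30 in the same serum-containing medium: 4 samples given a polysaccharide extract of Maidong (MPE) for 3 days, and 3 samples given phosphate-buffered saline as the vehicle for 3 days. The protocol lists several MPE concentrations without saying which was used for the arrays, and the labels do not say that the samples of a group were separate cultures. The p-values therefore reflect the scatter among these arrays only, and that scatter may be technical.

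These receptors are tetramers. AMPA receptors carry fast currents, and their calcium permeability depends on whether an edited Gria2 product is built in. Kainate receptors need a subunit such as the Grik2 product, with which the Grik5 product assembles. NMDA receptors need the Grin1 product, which binds glycine or D-serine, together with a glutamate-binding subunit such as those of the Grin2 genes. They are best known from synapses, and glutamate receptors have also been described on islet cells and beta-cell lines, where glutamate is discussed as a modulator of insulin release.

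All 7 arrays lay on 1 slide, with MPE in its second row and vehicle in its first row, so an effect of the row on the slide and one of the treatment cannot be told apart. On the MPE arrays 49.4% to 50.4% of all probes carried the scanner's flag for well above background, called detected here, and on the vehicle arrays 52.1% to 53.2%. The lowest signal that counted as well above background was 20.6 to 24.4 intensity units with MPE and 12.6 to 15.5 with vehicle. All 9 beta-cell markers looked up, among them Ins1, Ins2, Iapp, Pdx1 and Nkx6-1, were well above background on every array. Of these, 1 was higher and 8 lower with MPE, with a median difference of -0.07 and sums of 2889 to 3317 times the array's 75th percentile with MPE and 3038 to 3806 times with vehicle. Of 5 markers of other islet cells looked up, Gcg, Sst, Ppy and Ghrl were detected on every array, and all 5 were fitted and summed to 48.4 to 55.0 with MPE and 48.6 to 52.0 with vehicle. Of the 10 neuron markers, Rbfox3, Neurod6 and Slc17a7 were well above background on 0 arrays. The 6 neuron markers that could be fitted, some of which neuroendocrine cells share, summed to 138.8 to 150.1 times the 75th percentile of the array on MPE arrays and 147.1 to 162.7 times on vehicle arrays. The glia markers Aqp4, Olig2 and Sox10 were not detected on any array, and the 3 fitted of 7 looked up summed to 7.70 to 8.31 with MPE and 7.71 to 8.25 with vehicle. Of the 9 stromal, endothelial and immune markers, Col1a1, Col3a1 and Pdgfrb were not detected on any array, and the 3 fitted summed to 16.7 to 18.2 with MPE and 18.6 to 23.7 with vehicle. Of these fitted markers, 2 were lower with MPE at an unadjusted p under 0.05 without passing limma's adjusted threshold, as were 3.35% of all genes. They were Snap25, a vesicle fusion protein shared by neurons and beta cells (-0.27, SE 0.10), and Itgam, an integrin of myeloid cells (-0.35, SE 0.09). The part of other cell types in the results below was not tested.

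MIN6 cells gave clear signal for some subunits and none above background for others. Of the 20 probes, 12 were well above background on all 7 arrays, 4 on no array and 4 on some arrays. The 12 probes belonged to 6 genes, namely Gria2, Gria3, Gria4, Grik5, Grin1 and Grin2d, and each probe of these genes was detected on every array. Grin2a was not detected by either of its 2 probes on any array, and Grin2c, a subunit typical of cerebellar granule cells, only with 1 of its 2 probes on MPE replicate 4. Of all probes on the array, 46.0% were well above background on all 7 arrays and 39.2% on none. Among 7 further ionotropic subunit genes looked up, only Grid1, a delta-class subunit, was detected on all 7 arrays. Grik1, Grik3, Grik4 and Grin3a were detected on 0 arrays, and Grin2b and Grin3b on some. A probe at background does not show that the transcript is missing.

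**Figure D1:**
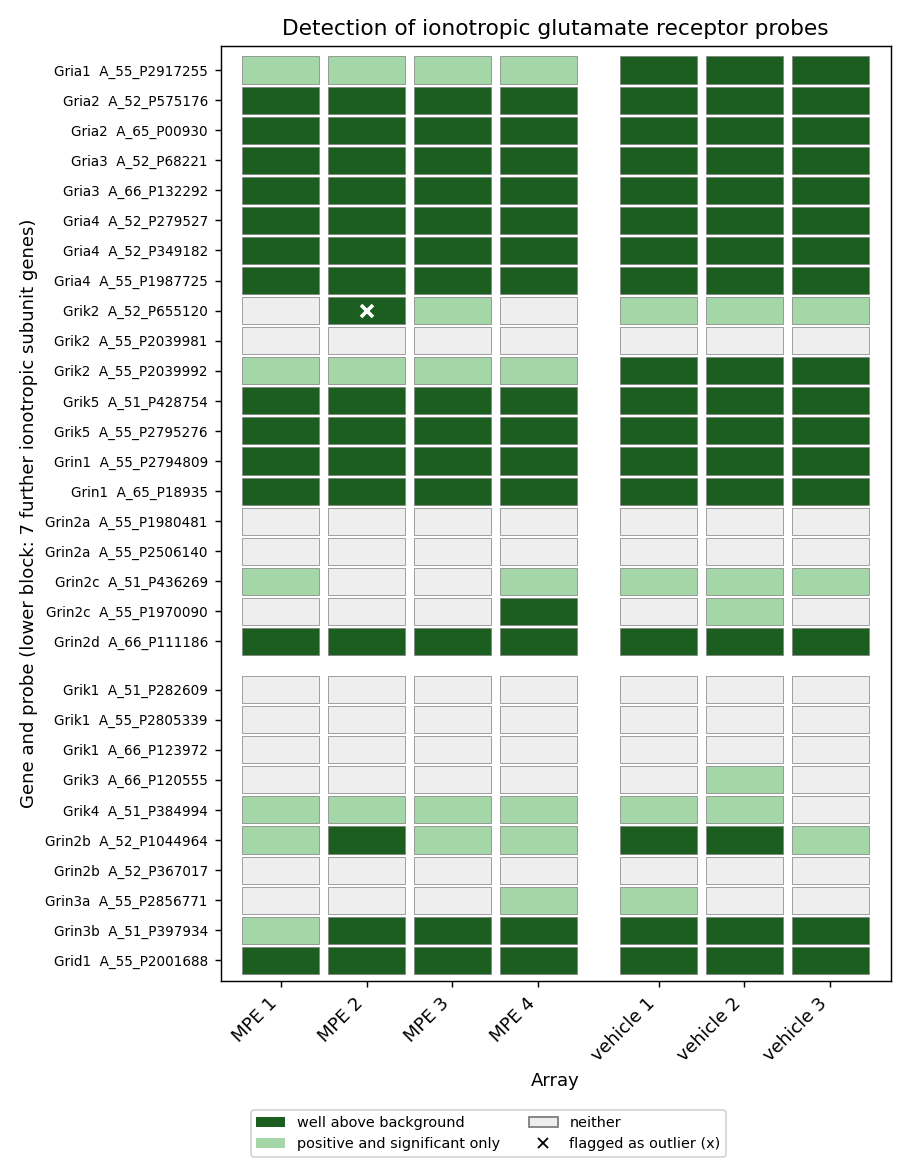
Detection flags of the 20 probes of the examined genes (upper block) and of the 10 probes of 7 further ionotropic subunit genes (lower block) on 4 MPE arrays (left) and 3 vehicle arrays (right). Dark cells are well above background, light green cells only positive and significant, grey cells neither, and a cross marks an outlier spot; Gria1 and 1 Grik2 probe are dark on the vehicle arrays alone.

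RefSeq promoter windows of GRCm38.p6, from 250 bases before to 50 bases after the gene start, were matched by symbol for 7 of the 10 genes. Gria1, Gria3 and Grin2a had no match. The letters CG, the same on both strands, were counted and occurred 33 times for Grin1, 26 for Gria2, 17 for Gria4, 12 for Grin2d and 10 for Grik5, all detected on every array. They occurred 26 times for Grik2 and 22 times for Grin2c, both detected on fewer arrays. The median of all 32851 windows was 7, and 16.9% of windows held at least as many as Gria2, with 23.1% for Grin2c. The windows of Gria2, detected on every array, and of Grin2c, detected on 1 array, are shown to set a subunit detected throughout beside one at background on most arrays, with each CG in capitals and each read 5′ to 3′ on the minus strand (Gria2 at chr3:80802786-80803085 and Grin2c at chr11:115267194-115267493).
Gria2: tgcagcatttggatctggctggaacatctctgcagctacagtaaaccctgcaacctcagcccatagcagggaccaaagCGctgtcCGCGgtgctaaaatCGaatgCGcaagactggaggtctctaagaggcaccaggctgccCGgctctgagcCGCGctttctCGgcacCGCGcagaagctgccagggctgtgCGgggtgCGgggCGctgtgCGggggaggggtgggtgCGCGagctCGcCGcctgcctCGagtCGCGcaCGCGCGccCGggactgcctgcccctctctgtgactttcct
Grin2c: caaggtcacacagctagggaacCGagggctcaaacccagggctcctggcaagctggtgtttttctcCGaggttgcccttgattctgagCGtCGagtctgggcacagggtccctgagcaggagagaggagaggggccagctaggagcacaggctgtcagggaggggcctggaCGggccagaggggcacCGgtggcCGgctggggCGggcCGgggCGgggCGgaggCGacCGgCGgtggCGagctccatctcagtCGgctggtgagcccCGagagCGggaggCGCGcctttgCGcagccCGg

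Gria1 encodes GluA1, the AMPA receptor subunit known from activity-dependent receptor trafficking at synapses. It was measured by 1 probe (A_55_P2917255), whose levels were -4.45, -4.40, -4.51 and -4.27 on the MPE arrays and -3.64, -3.75 and -3.98 on the vehicle arrays, as log2 relative to the 75th percentile of each array. All MPE arrays thus lay below all vehicle arrays. The MPE mean was -4.41 ± 0.10 (SD, n = 4), the vehicle mean was -3.79 ± 0.18 (SD, n = 3), and the difference was -0.62. Fewer cells with the transcript and less transcript per cell cannot be told apart in these bulk samples.

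The loss of detection rests on a signal close to each array's limit. The unscaled processed intensity of Gria1 was 16.9, 18.2, 18.4 and 19.1 on the MPE arrays, against 26.0, 24.9 and 24.0 on the vehicle arrays. As a share of that array's own detection limit, the lowest signal flagged as well above background, this was 81.4%, 84.2%, 75.7% and 92.8% on the MPE arrays and 198%, 198% and 155% on the vehicle arrays. Both terms differed between the groups, with the signal lower and the limit higher on the MPE arrays. Against the limit, the MPE mean has only a bound, by which the scaled processed signal of Gria1 was at least 1.28-fold lower with MPE. This bound holds for the group means of that signal only and makes no allowance for the scatter among arrays. Smaller differences arose with other values and within 1 slide column, as given below. Before background subtraction, the median pixel intensity of the spot was 50, 46, 46 and 49 with MPE and 57.5, 55 and 56.5 with vehicle. The local background beside the spot was 22 to 27 with MPE and 25 to 27 with vehicle, and the negative-control spots had a median of 30 with MPE on each array and 29 to 29.75 with vehicle.

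By the laxer of the scanner's flags, positive and significant against background, Gria1 passed on all 4 MPE arrays and all 3 vehicle arrays. With 1 limit for all arrays, at a scaled log2 level of -4.11, Gria1 stayed below it on all 4 MPE arrays and above it on all 3 vehicle arrays. This limit is the highest of the arrays' own limits, and Gria1 lay below its own limit on each MPE array. The MPE side was therefore fixed in advance, and only the vehicle side could have come out otherwise. The groups differed within the slide columns they share, by -0.81 between the replicates 1, by -0.65 between the replicates 2 and by -0.29 between MPE replicate 4 and vehicle replicate 3. The difference was smallest in the fourth column. With normexp and an offset of 50 on the median spot intensity, in place of the processed intensity, the difference was -0.25.

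**Figure D2:**
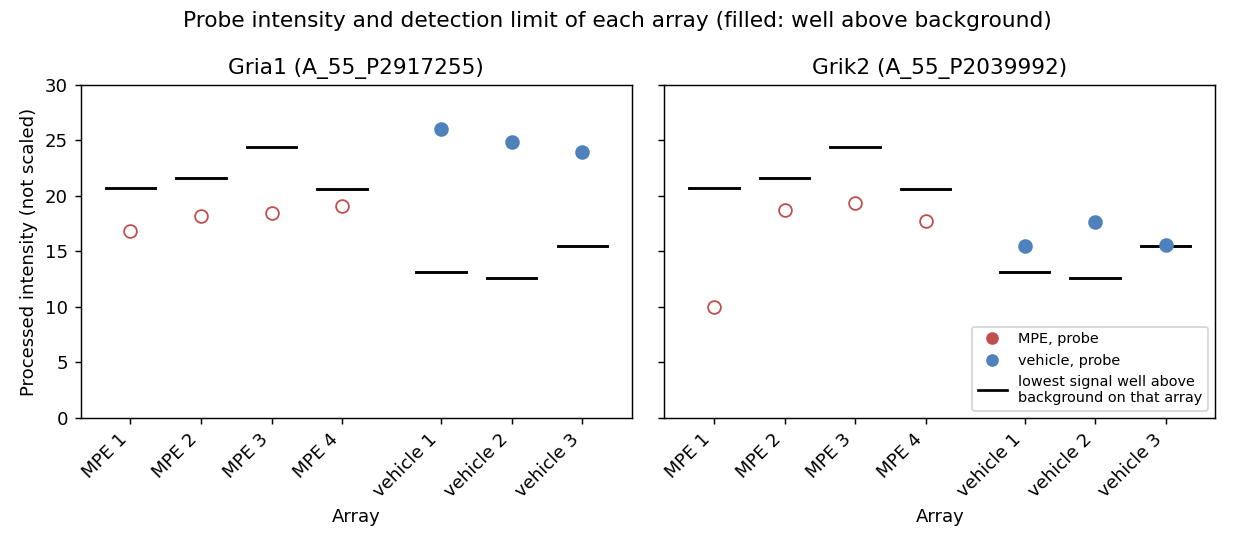
Unscaled processed intensity of the Gria1 probe (left panel) and of the Grik2 probe A_55_P2039992 (right panel) on the MPE arrays (red) and the vehicle arrays (blue), with a black bar at each array's lowest signal well above background. Gria1 lies below the bar on the 4 MPE arrays and above it on the 3 vehicle arrays; the Grik2 probe does the same, though its intensity on 3 MPE arrays is above that on every vehicle array.

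Over the whole array, 387 probes, or 0.684%, were well above background on all vehicle arrays and no MPE array, and 4 probes, or 0.00707%, the other way round. The scaled level was lower with MPE for 99.2% of these 387 probes, with a median difference of -0.46 and quartiles of -0.64 and -0.31. For 39.0% of them the MPE arrays all lay below the vehicle arrays, and the unscaled signal was lower with MPE for 92.8%. These probes were selected on their flags, and the detection limit was higher on the MPE arrays. Lower levels with MPE therefore follow at least in part from the selection and cannot show a broad decrease. Counting Gria1 itself, 107 of the 387 probes had a difference as low as that of Gria1 or lower. Of the 387 probes, 97.4% were still positive and significant on all 7 arrays. The Gria1 spot lay in row 347 of 384. The rows with the higher numbers, from the middle of the array on, held 275 of these probes with a median difference of -0.48, and the other rows 112 with a median of -0.42. An effect of position was not tested, because these counts have no share of all dim probes beside them.

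**Figure D3:**
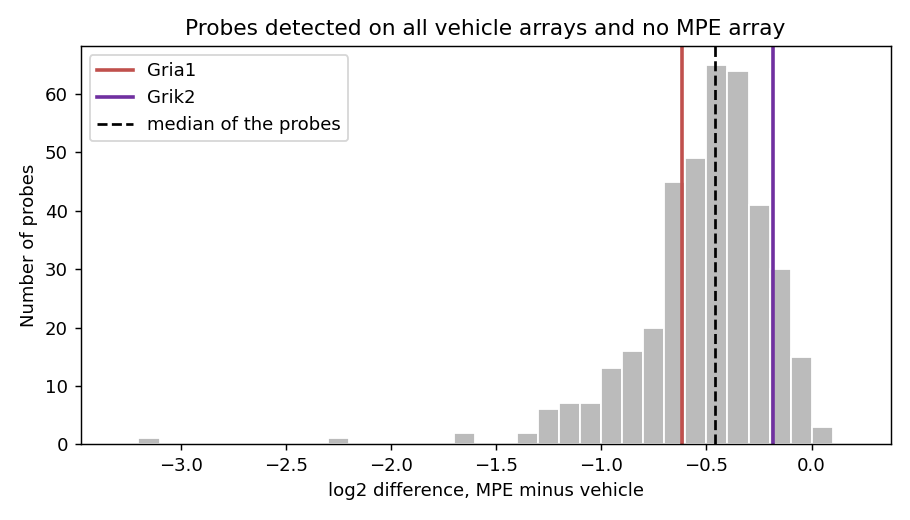
Histogram of the log2 difference (MPE minus vehicle) of the 387 probes that were well above background on all vehicle arrays and on no MPE array, with lines for Gria1 (-0.62), the Grik2 probe (-0.18) and the median of the probes (-0.46, dashed). Gria1 lies left of the median and the Grik2 probe right of it.

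The other AMPA subunit genes stood near vehicle levels. Gria2 encodes GluA2, which after RNA editing makes AMPA receptors largely impermeable to calcium. The probe that represents it (A_52_P575176) had levels of 1.19, 1.32, 1.54 and 1.41 with MPE and 1.31, 1.26 and 1.48 with vehicle, and the groups overlapped. The MPE level was 1.01 times the vehicle level (95% interval 0.857 to 1.19, limma adjusted p = 1.00). Its other probe (A_65_P00930) had levels of -2.68, -2.59, -2.23 and -2.39 with MPE and -2.48, -2.61 and -1.74 with vehicle. Vehicle replicate 3 stood highest there, and the difference was -0.20 (SE 0.22).

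Gria3 encodes GluA3, a subunit that assembles with GluA2. The probe A_66_P132292 had levels of -1.01, -1.10, -1.18 and -0.61 with MPE and -1.23, -1.01 and -1.11 with vehicle, with MPE replicate 4 highest and the groups overlapping. The ratio of MPE to vehicle was 1.1 (95% interval 0.875 to 1.39, limma adjusted p = 1.00). The second probe (A_52_P68221) gave a difference of -0.07 (SE 0.13), opposite in sign to the 0.14 of the first. Without MPE replicate 4 the difference of the first probe was 0.02.

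Gria4 encodes GluA4 and had the smallest SDs among the probes that represent the 8 fitted genes. Its representing probe (A_55_P1987725) had levels of 2.14, 2.12, 2.19 and 2.19 with MPE and 2.11, 2.14 and 2.22 with vehicle. The MPE mean was 2.16 ± 0.04 (SD, n = 4) and the vehicle mean 2.16 ± 0.06 (SD, n = 3). The ratio was 1.00 with a 95% interval of 0.921 to 1.09 (limma adjusted p = 1.00), and the 2 other probes gave differences of 0.01 and -0.05. The differences of Gria2 and Gria4 lay so near 0 that their sign turned in 8 of 19 alternative settings each, including those without vehicle replicate 1 (-0.0085 and -0.020) or vehicle replicate 2 (-0.035 and -0.0023), and without MPE replicate 3 (-0.047 and -0.0064) or MPE replicate 4 (-0.0026 and -0.0054), none of them past the threshold.

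**Figure D4:**
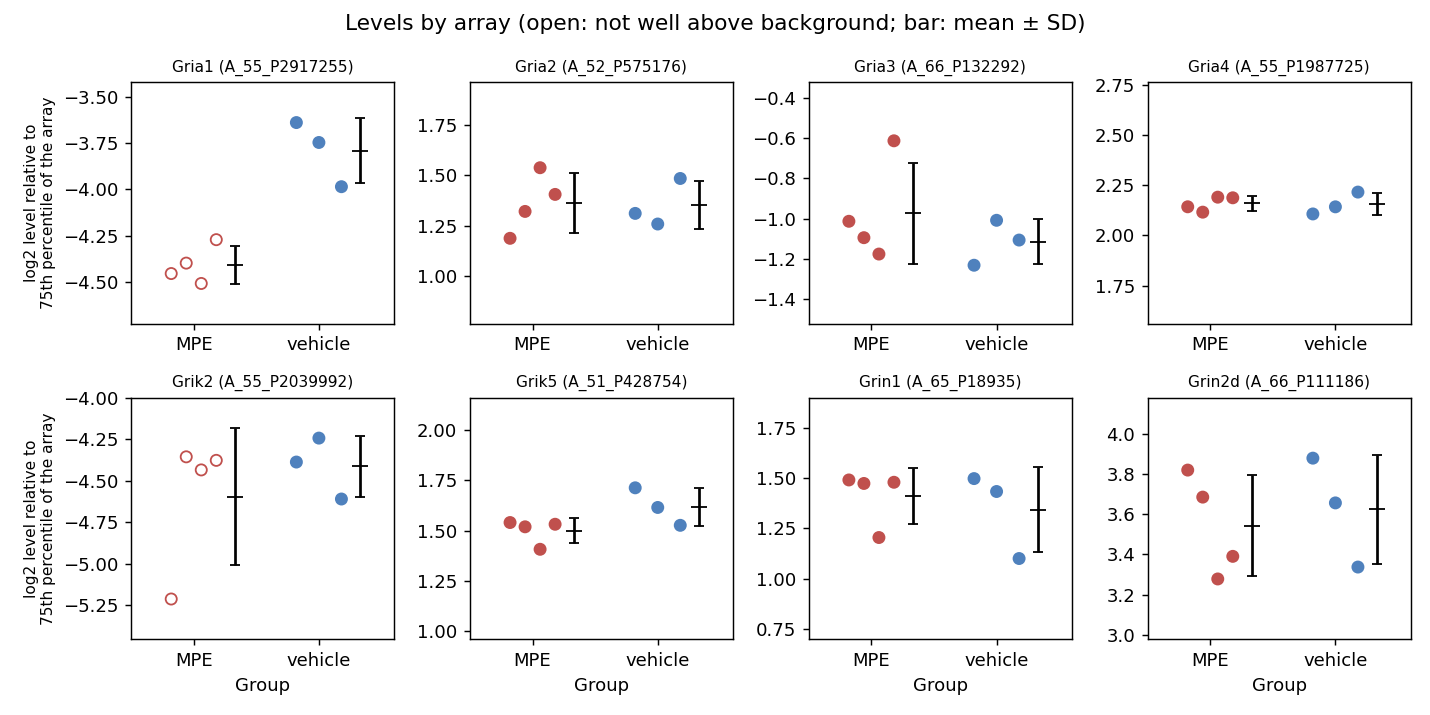
Log2 level relative to the 75th percentile of the array for the probe that represents each of the 8 fitted genes, with 4 MPE arrays (red, left) and 3 vehicle arrays (blue, right), open circles where the probe was not well above background, and bars for mean ± SD. The groups overlap for every gene except Gria1; the panels have separate scales, and levels of different probes cannot be compared.

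Of the kainate subunits, Grik2 encodes GluK2, which can form channels by itself. Its probe A_55_P2039992 shared the detection pattern of Gria1, on 0 of 4 MPE arrays and 3 of 3 vehicle arrays, without a lower signal on most MPE arrays. The unscaled intensity was 9.97, 18.7, 19.4 and 17.8 with MPE and 15.5, 17.7 and 15.6 with vehicle. MPE replicates 2, 3 and 4 thus stood above every vehicle array and still below their own detection limits. On the scaled levels, -5.21, -4.36, -4.43 and -4.38 with MPE and -4.39, -4.24 and -4.61 with vehicle, the groups overlapped. The log2 difference was -0.18, and 0.02 without MPE replicate 1. No test is given, because the probe passed the filter on dim probes through the vehicle arrays alone. Because its bright side lies below the MPE detection limit, no bound can be given.

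The 2 other Grik2 probes went undetected on the vehicle arrays. One of them (A_52_P655120) read 1527 on MPE replicate 2, where the spot was flagged as an outlier and left out, and 4.37, 23.6 and 4.33 on MPE replicates 1, 3 and 4. On the vehicle arrays it read 3.40, 4.52 and 5.18. The third probe read 4.71 to 5.42 with MPE and 2.89 to 3.54 with vehicle and was positive and significant on no array. Both Grin2a probes did the same, and all 3 probes read higher on every MPE array than on any vehicle array, so their values lie at the floor of each array and give no fold.

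Grik5 encodes GluK5, which binds glutamate with high affinity and works only with a partner subunit. The probe that represents it (A_51_P428754) had levels of 1.54, 1.52, 1.41 and 1.53 with MPE and 1.71, 1.62 and 1.53 with vehicle, where only vehicle replicate 3 reached into the MPE range. The ratio was 0.921 (95% interval 0.827 to 1.03, limma unadjusted p = 0.115, adjusted p = 1.00). The other probe gave a difference of -0.17 (SE 0.13), in the same direction. The difference of Grik5 kept its sign in all 19 alternative settings, from -0.19 to -0.07, without passing the threshold in any. That of Gria3 did so as well, from 0.02 to 0.21. Some settings, such as those that change only the filter or the variance model, leave the difference itself as it was. The sign could not change there.

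Of the NMDA subunits, Grin1 encodes the obligatory subunit GluN1. Its representing probe (A_65_P18935) had levels of 1.49, 1.47, 1.20 and 1.48 with MPE and 1.5, 1.43 and 1.1 with vehicle. Replicate 3 was the lowest array of both groups. The ratio was 1.05 (95% interval 0.860 to 1.28, limma adjusted p = 1.00), and without vehicle replicate 3 the log2 difference turned to -0.05. The other Grin1 probe gave a difference of 0.00 (SE 0.23).

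Grin2d encodes GluN2D, known for slow channel closure and weak block by magnesium. It was the only Grin2 gene detected on every array and had 1 probe. The levels were 3.82, 3.68, 3.28 and 3.39 with MPE and 3.88, 3.66 and 3.34 with vehicle, spread alike in both groups. The ratio was 0.946 (95% interval 0.709 to 1.26, limma adjusted p = 1.00). The sign turned without MPE replicate 3 (0.01) or vehicle replicate 1 (0.05).

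Grin2a and Grin2c encode the glutamate-binding subunits GluN2A and GluN2C. The Grin2a probes read 4.85 to 5.6 with MPE and 2.99 to 3.74 with vehicle, below the detection limit of every array. Of the Grin2c probes, A_55_P1970090 read 26.6 on MPE replicate 4, against 4.57 to 5.18 for the rest of the MPE group and 2.93 to 4.59 with vehicle. The second Grin2c probe read 4.46 to 8.95 with MPE and 3.55 to 7.83 with vehicle, below every array's limit. These 2 genes were not fitted.

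Across the family, 8 of the 10 genes passed the filter on dim probes, Gria1 and Grik2 through the vehicle arrays alone. Of the other 6, detected on every array, 0 passed limma's adjusted threshold of 0.05 in either direction, against 0.00453% of the 22060 genes tested that were called higher and 0.0% called lower. At an unadjusted p under 0.05 the count was also 0, against 0.757% of all genes higher and 3.35% lower. The trended robust variance of limma called 0 of these 6 as well. Of the 6 genes, 4 were higher and 2 lower with MPE, with a median difference of 0.01 beside -0.02 over all genes, of which 57.7% were lower. For the probe that represents each of the 6 genes, the 95% interval left out a change of 1.5-fold either way. The other Gria2 probe, at 0.606 to 1.26, did not leave out such a decrease. In none of the 6 did the groups stand apart, where over all genes the MPE arrays lay below the vehicle arrays for 3.36% and above for 1.17%.

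**Figure D5:**
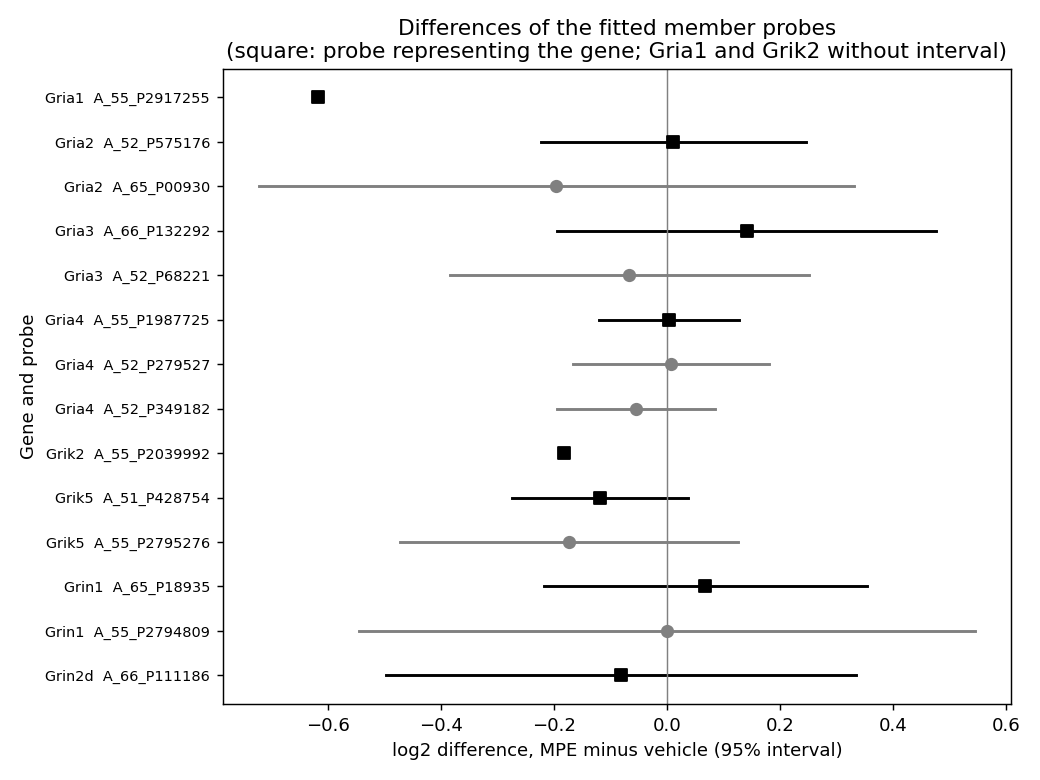
Log2 difference (MPE minus vehicle) with 95% intervals from limma for the 14 fitted probes of the 8 genes, squares for the probe that represents a gene and circles for its other probes. Each interval shown spans 0; Gria1 (-0.62), selected on its flags, and Grik2 (-0.18), which passed the filter through the vehicle arrays alone, are shown without intervals.

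The number of detected family probes was lower on the MPE arrays, as was the share over all probes. This number counts Gria1, which was selected on the same flag, so part of the lower count follows from the selection. It was 12, 13, 12 and 13 of 20 on the MPE arrays and 14 on each vehicle array. The 2 probes detected on the vehicle arrays alone were those of Gria1 and Grik2, and the 2 probes detected on single MPE arrays were the outlier spot of Grik2 and the Grin2c probe. With 1 limit for all arrays the counts were 12, 12, 12 and 13 with MPE and 13 on each vehicle array. Beyond the 12 probes detected on every array, these counts held Gria1 on the vehicle arrays and the Grin2c probe on MPE replicate 4. The lower count with 1 limit therefore rests on Gria1 and is no result about the family. The share of all probes was then 49.9% to 50.8% with MPE and 49.7% to 50.0% with vehicle.

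The further ionotropic subunit genes that could be fitted gave no call either. Grid1 had a ratio of 1.04 (95% interval 0.849 to 1.27, limma adjusted p = 1.00). Grin2b, a glutamate-binding NMDA subunit, had 1.17 with a wide interval of 0.465 to 2.97, and MPE replicate 2 at 58.6 stood far above the 12.1 to 15.2 of the rest of the MPE group and the 12.2 to 17.3 with vehicle. Grin3b, a glycine-binding subunit, had 1.03 (95% interval 0.545 to 1.94).

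In 6 further lists of glutamate genes, 45 of 73 genes could be fitted and 0 passed limma's adjusted threshold, with 19 higher, 26 lower and a median of -0.01. At an unadjusted p under 0.05 there were 1 higher, Cacng4, and 1 lower, Shank1, where the shares over all genes are 0.757% and 3.35%. The count of 1 lower is no test of Shank1, which passed the filter on dim probes through the vehicle arrays. Of 19 auxiliary subunits, 12 were fitted, 6 higher and 6 lower. Among them Cacng4, an AMPA receptor auxiliary protein of the TARP group, had a difference of 0.29 (SE 0.11, limma unadjusted p = 0.0344, adjusted p = 1.00). All its MPE arrays lay above the vehicle arrays, as for 1.17% of all genes. Its signal was dim, with means of -3.58 with MPE and -3.87 with vehicle, though detected on every array. Porcn, an acyltransferase found with AMPA receptors, had 0.08 (SE 0.06).

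Of 21 scaffold and trafficking genes, 16 were fitted, 7 higher and 9 lower. The postsynaptic scaffold gene Shank1 had a difference of -0.47, with all MPE arrays below the vehicle arrays, as for 3.36% of all genes. It was well above background on only 1 of 4 MPE arrays, against 3 of 3 vehicle arrays. No test is given, because it passed the filter through the vehicle arrays. For the scaffold gene Grip1 all MPE arrays lay above the vehicle arrays, as for 1.17% of all genes. Its difference was only 0.05 (SE 0.05, limma unadjusted p = 0.356), and it was named after its values were seen. Dlgap2, another scaffold gene, had -0.11 (SE 0.06). Among 8 metabotropic receptors 1 was fitted, Grm2, a receptor that lowers cyclic AMP, with 0.11 (SE 0.14).

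Of 9 glutamate transporters 3 were fitted, all lower without passing, among them the mitochondrial carrier Slc25a22 (-0.03, SE 0.06) and the plasma membrane transporter Slc1a2 (-0.01, SE 0.06). The vesicular transporters Slc17a6, Slc17a7 and Slc17a8 were detected on 0 arrays. Of 11 genes of glutamate and D-serine metabolism 10 were fitted, 4 higher and 6 lower, with the transaminases Got1 at 0.08 (SE 0.06) and Gpt at -0.09 (SE 0.07). Of the 5 genes of RNA editing and of repression by REST, Adarb1, the enzyme that edits the Gria2 transcript, was detected on every array and stood at 0.01 (SE 0.06), and Adar and Rcor1 at -0.08 (SE 0.06) and -0.03 (SE 0.05). Rest, a repressor of neuronal genes that beta cells are known to lack, was not detected on any array.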

How the data were processed

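Per the labels' protocols, Cy3-labelled RNA from 100 ng of total RNA was measured on Agilent arrays in 1 colour. Per the file headers, the deposited intensities come from Feature Extraction 11.5.1.1 (10.5.1.1 per the submitters' processing notes), the processed intensity being background-subtracted and spatially detrended. The authors' deposited value table holds log2 values with column medians of 4.438. They correlated at 0.9996 or more with log2 scanner intensities, and how they were normalized is not stated in the labels or headers.

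No spot was saturated. After removal of control spots and of 611 values marked as outliers, log2 processed intensity was averaged per probe, and the array's 75th percentile was subtracted. A probe was kept if 3 or more arrays flagged it well above background and all 7 had a value (28874 probes). The probe with the highest mean represented a gene (22060 genes). Symbols came from RefSeq accessions of GRCm38.p6 (32994 of 56605 probes). Groups were compared with limma 3.58.1 in R 4.3.3, Benjamini-Hochberg adjusted over all genes, or over all kept probes for a gene's other probes. The fit was tested on simulated data. No p-value is given for Gria1, selected on its flags, or for Grik2 and Shank1, which the vehicle arrays alone carried past the filter. A fold bound replaces each dim array's level by its detection limit where that is higher.

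The text names the examined and 7 further subunit genes, up to 2 fitted genes of each further list with the smallest unadjusted p, and cell type markers. Adarb1, Grip1 and the list genes given as undetected were added after their values were seen. Of the genes this rule names, 3 are not reported here. The genes and lists were chosen with earlier results of these data known. Other scalings, filters, values, probe rules, variance models, blocks and left-out arrays were tried. The number of arrays limits the precision.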

Additional observations from a re-analysis of the deposited data

Results flagged for a closer look

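In 19 probes with values on all 4 MPE arrays, each group of 4 was checked for an array far from the others. Of these, 4 were flagged, or 21.1%, beside 15.3% of the 56443 probes of the array checked in the same way and the 1 in 20 that chance gives for independent groups. Probes of an array are not independent, and 2 of the 4 flags fell on MPE replicate 3. The Grin2c probe A_55_P1970090 stood at -3.79 on MPE replicate 4, against -6.38 to -6.34 on the other 3 MPE arrays. The Grik2 probe A_55_P2039992 stood at -5.21 on MPE replicate 1, against -4.43 to -4.36 on the others. The Grin1 probe A_65_P18935 stood at 1.20 on MPE replicate 3, against 1.47 to 1.49, and the Grik5 probe A_51_P428754 at 1.41 on the same array, against 1.52 to 1.54.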

How the results depend on the processing

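None of the 6 tested member genes passed the adjusted threshold under any alternative, with adjusted p-values of 0.331 or more. Scaling to the array median gave -0.058 for Gria2, -0.066 for Gria4 and -0.0015 for Grin1, with the median of all genes then at -0.09. The mean of a gene's probes gave -0.092 for Gria2 and -0.014 for Gria4, and normexp on median spot intensity 0.012 for Grik2. The slide column as a block gave -0.047 for Gria2, -0.0064 for Gria4 and 0.0075 for Grin2d. The replicate number as a block gave -0.0026 for Gria2 and -0.0054 for Gria4 and called 0 genes in all, with adjusted p-values of these members from 0.585 to 0.996; MPE replicates 1 and 3 correlated best with the vehicle array of their own number (0.247 and 0.413), MPE replicate 2 with vehicle replicate 1 (0.306, against 0.0509 with its own number), and the numbers were not taken to pair the arrays. Gria1 and Grik2 have no test, and the difference of Gria1 was -0.62, and -0.25 with normexp on median spot intensity. Leaving out each array in turn gave -0.71 to -0.54 for Gria1, -0.047 to 0.078 for Gria2, 0.021 to 0.21 for Gria3, -0.020 to 0.034 for Gria4, -0.28 to 0.024 for Grik2, -0.054 to 0.15 for Grin1 and -0.22 to 0.046 for Grin2d. The detected member probes per array differed by -1.5 between the group means, by -0.75 with 1 limit for all arrays and by -1.67 to -1.33 without single arrays. Each of these counts includes Gria1, selected on its flags. Over all genes, 1 was called higher and 0 lower. Trended variance called 3 higher, the filter on all 7 arrays, normexp and both blocks 0, single probes 2 lower, and leaving out arrays 0 to 3 higher and 0 to 1 lower. Without a filter 9619 were called higher and 349 lower, and the cause was not tested. The filter on all 7 arrays leaves no value for Gria1 and Grik2. Dim signals limit what can be said of Gria1 and Grik2, whose intensities lay near each array's limit. The setting that counts outlier spots as not detected was chosen after seeing the data.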
